A study of Homo sapiens with 18 samples.

Results

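Glycolysis and hypoxia response genes, 36 of the 42141 genes in the tables, were followed through 3D cultures of a human mammary epithelial line. The 36 genes were taken by name from a list of glucose transporters, glycolytic enzymes, lactate and pH handling genes and genes known to rise when oxygen is low. All 36 were found, PGK1 under an altered name that was restored, and all 36 passed the filter on low counts that left 16911 genes for testing. The cells were MCF-10A.B2, a non-tumour breast epithelial line with an inducible chimeric HER2 receptor whose kinase is switched on when a B/B homodimerizer pairs the chimeras. JNKKO cells and WT cells formed acini, rounded epithelial structures, on growth factor reduced Matrigel for 21 days. After 7 days the EGF in the medium was replaced for 14 days by homodimerizer with TGF-β1 (dimerizer with TGF-β1), by homodimerizer alone (dimerizer) or by ethanol (control). Each of the 6 groups had 3 libraries of polyadenylated RNA. JNKKO means a knockout of JNK, a stress kinase, but the sources used here name neither the JNK genes edited nor the number of clones. Nothing in the labels tells if the 3 libraries per group are separate cultures; p-values then cover only the variation among these samples, possibly technical. The design compares gene expression between JNKKO and WT acini as HER2 and TGF-β1 signals act on them.

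In glycolysis, glucose enters the cell through SLC2A transporters, is phosphorylated and split by the upper enzymes, and is carried to pyruvate by the lower enzymes. Lactate dehydrogenase turns pyruvate to lactate, which leaves the cell through monocarboxylate transporters, while pyruvate dehydrogenase kinases hold pyruvate back from mitochondria. When oxygen falls, prolyl hydroxylases of the EGLN family lose activity, the factor HIF is no longer degraded, and it binds short DNA elements with an ACGTG or GCGTG core near genes for many of these steps.

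The promoters of CA9, ENO2, VLDLR and EGLN3 are shown because these 4, with SLC2A3, had the largest differences between JNKKO and WT acini under dimerizer with TGF-β1. Each runs from 250 bases before to 50 bases after a transcription start listed by RefSeq on GRCh38.p14, 5′ to 3′ on the gene's strand, and capitals mark each ACGTG or GCGTG core on either strand (reverse complements CACGT and CACGC). The windows are CA9 at chr9:35673678-35673977 on the plus strand, ENO2 at chr12:6914330-6914629 on the plus strand, VLDLR at chr9:2621537-2621836 on the plus strand and EGLN3 at chr14:33951025-33951324 on the minus strand.
CA9: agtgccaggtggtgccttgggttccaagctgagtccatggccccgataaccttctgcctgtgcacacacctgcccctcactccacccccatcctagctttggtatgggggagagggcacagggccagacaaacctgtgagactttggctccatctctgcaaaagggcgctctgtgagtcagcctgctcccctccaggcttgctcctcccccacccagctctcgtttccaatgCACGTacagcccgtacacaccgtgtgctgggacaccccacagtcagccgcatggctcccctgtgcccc
ENO2: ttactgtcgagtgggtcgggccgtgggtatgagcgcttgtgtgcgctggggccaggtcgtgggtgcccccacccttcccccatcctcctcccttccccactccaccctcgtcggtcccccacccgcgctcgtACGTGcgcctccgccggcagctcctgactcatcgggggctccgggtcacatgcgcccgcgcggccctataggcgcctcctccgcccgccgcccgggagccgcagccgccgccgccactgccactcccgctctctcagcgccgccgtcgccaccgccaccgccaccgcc
VLDLR: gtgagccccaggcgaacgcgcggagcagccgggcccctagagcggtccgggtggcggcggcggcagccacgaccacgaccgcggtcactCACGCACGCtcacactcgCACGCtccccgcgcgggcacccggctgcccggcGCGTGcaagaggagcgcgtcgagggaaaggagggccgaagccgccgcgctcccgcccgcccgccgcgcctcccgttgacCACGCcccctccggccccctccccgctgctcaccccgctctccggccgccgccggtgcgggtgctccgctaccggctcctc
EGLN3: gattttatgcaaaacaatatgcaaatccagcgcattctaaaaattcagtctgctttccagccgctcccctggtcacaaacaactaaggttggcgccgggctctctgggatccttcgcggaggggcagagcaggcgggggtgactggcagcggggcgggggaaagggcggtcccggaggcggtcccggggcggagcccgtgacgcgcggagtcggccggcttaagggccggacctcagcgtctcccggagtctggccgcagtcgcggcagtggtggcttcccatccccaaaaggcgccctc

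CA9 held 1 core, read on the reverse strand 18 bases before the start, ENO2 held 1 on the forward strand 118 bases before the start, and VLDLR held 5, of which the pair nearest each other lay 161 and 157 bases before the start. The EGLN3 window held none, which says only that these letters are not in this window. Of the members, 33 had at least 1 promoter in the RefSeq table, with 61 windows among them. At least 1 core stood in 42 of the 61 windows (68.9%), against 17012 of all 35116 windows (48.4%). The ACGTG form stood in 23 of the 61 windows (37.7%), against 21.4% of all windows. Per gene, 31 of 33 members (93.9%) had a core in some window, against 52.4% of all 27305 genes, but members had more windows per gene than the rest of the table. Base composition, which moves the share of windows with a core, was not tested, and a match is not a binding site. SLC2A3, BNIP3L and NDRG1 had no entry.

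Library totals ran from 24243537 to 34499651 expected counts, and levels below are CPM (counts scaled to a fixed library total) after TMM scaling for differences within a gene, and deposited TPM (transcript abundances per length) for levels between genes. The lowest count of any member in any library was 4, for CA9. The JNK genes themselves were still counted in JNKKO libraries: MAPK9 ran from 42.0 to 53.9 CPM in JNKKO libraries and from 57.1 to 68.3 CPM in WT libraries, MAPK8 from 25.5 to 34.8 CPM and from 22.7 to 35.1 CPM in the same order, and MAPK10 from 3.64 to 7.51 CPM and from 3.89 to 10.5 CPM. Without the edited sites these values do not check the genotype. WT dimerizer with TGF-β1 replicate 3 carries a genotype tag that contradicts its title. It was grouped by title, and results that rest on it are given without it where they change. Its MAPK9 level was 65.4 CPM, between the 64.7 and 68.3 CPM of the other libraries of its group, which does not check its genotype either. All 8 basal mammary epithelial markers were detected, at 10907 to 14768 CPM summed. Of 7 luminal markers 4 were under 1 CPM in all libraries, with ELF5 and KIT at 0, and 4 of 6 fibroblast, 3 of 6 immune and 2 of 5 endothelial markers were under 1 CPM in all libraries. In bulk RNA, fewer cells that make a transcript and less of it per cell cannot be told apart.

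Some libraries held most members on 1 side of their group. JNKKO dimerizer replicate 2 was the lowest of its 3 libraries for 29 of 36 members, although it was the lowest for 37.7% of all genes tested. WT dimerizer with TGF-β1 replicate 1 was the lowest for 26 of 36 members, against 36.5% of all genes, and JNKKO dimerizer with TGF-β1 replicate 3 for 24 of 36, against 32.9%. WT dimerizer replicate 2 was the highest for 23 of 36 members, against 33.5% of all genes. WT control replicate 1 was not on 1 side. It was the highest for 13 members and the lowest for 15, against 35.8% and 33.8% of all genes. The 13 included CA9, EGLN3, ENO2, SLC2A3 and NDRG1. Results whose call changes without such a library are given with both values.

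Per length, GAPDH was the most abundant member in all 6 groups, with 4448 ± 84.7 TPM in JNKKO acini with dimerizer and TGF-β1 and 2134 ± 52.8 TPM in WT control acini (SD, n = 3 each). ENO1, PKM, LDHA and ALDOA followed, at 1541 ± 42.3, 1445 ± 65.9, 1439 ± 34.1 and 1305 ± 27.4 TPM in JNKKO acini with dimerizer and TGF-β1 (SD, n = 3). VLDLR was among the least abundant, with 3.83 ± 0.414 TPM in JNKKO acini with dimerizer and TGF-β1 and 0.147 ± 0.0896 TPM in WT control acini (SD, n = 3 each). Together the 36 genes took 1.77% ± 0.0236 of all expected counts in JNKKO acini with dimerizer and TGF-β1, 1.68% ± 0.0761 in JNKKO acini with dimerizer and 1.34% ± 0.0067 in JNKKO control acini, against 1.25% ± 0.0505, 1.35% ± 0.0226 and 1.14% ± 0.0101 in WT acini with dimerizer and TGF-β1, with dimerizer and in control (SD, n = 3 each). The 3 JNKKO libraries lay above the 3 WT libraries in each treatment. Mitochondrially encoded genes took 5.24% to 10.9% of counts in JNKKO libraries and 8.61% to 15.3% in WT libraries, and with them left out of the fit the members called in JNKKO against WT acini were as many as below in each treatment.

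**Figure D1:**
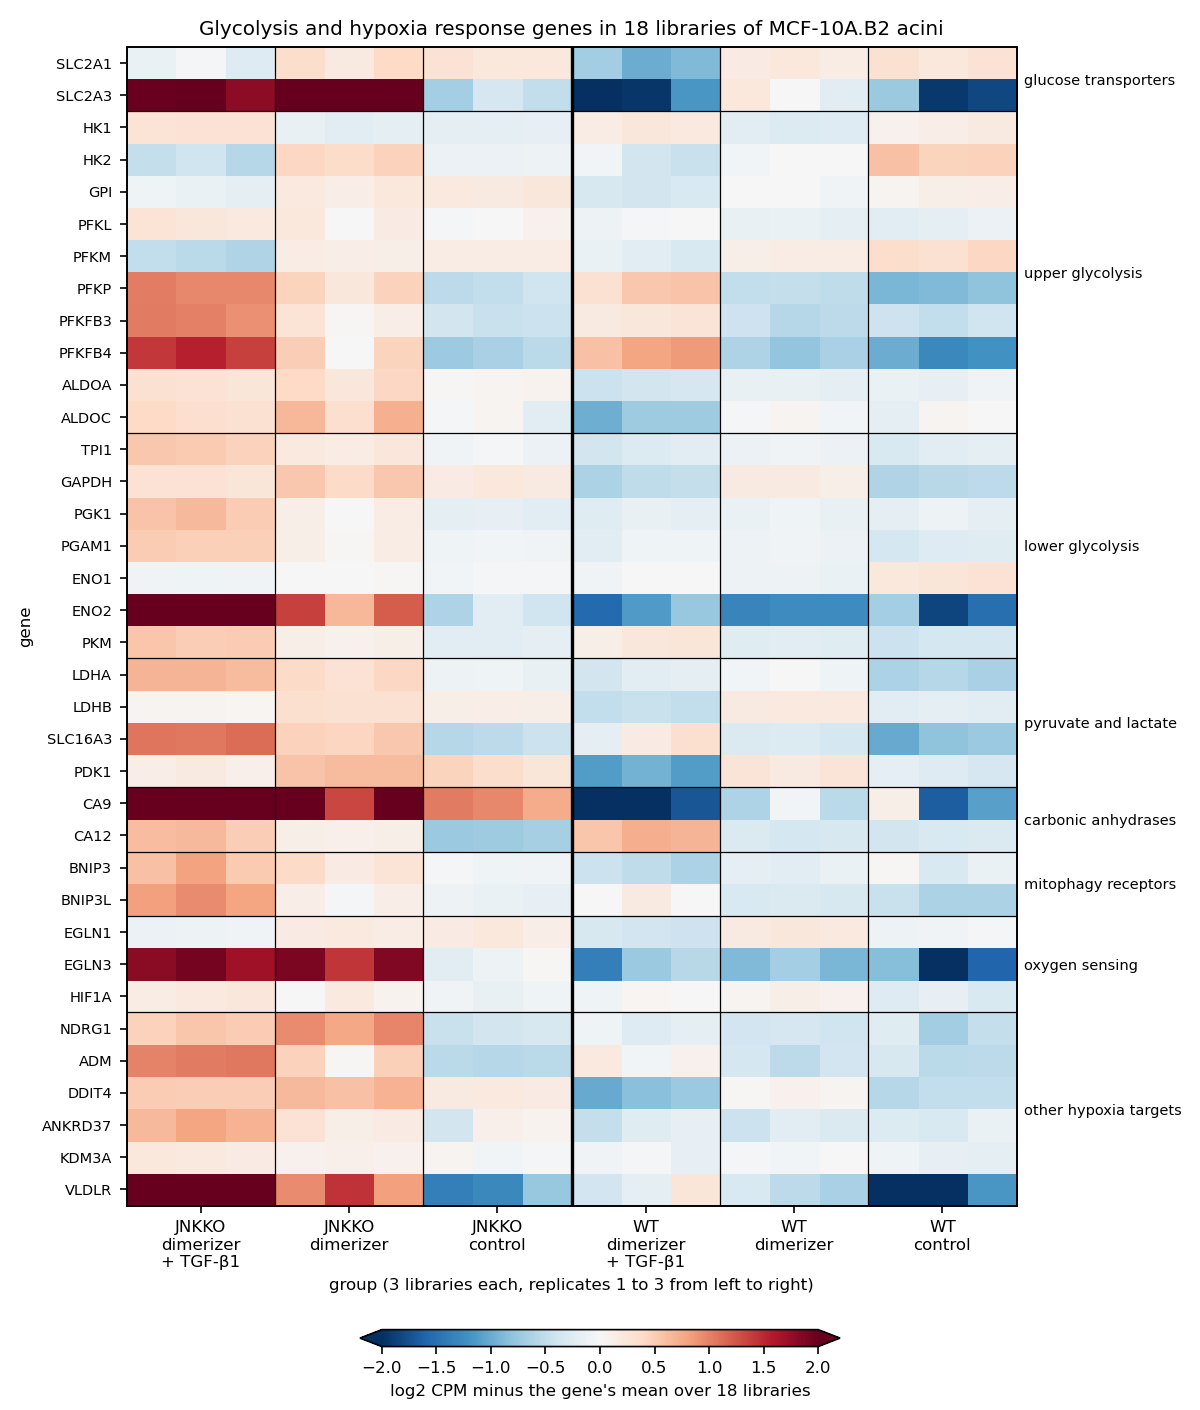
Levels of the 36 genes (rows, grouped by role) in the 18 libraries (columns, 3 per group), as log2 CPM minus the gene's mean over all libraries; red is above and blue below that mean, and colours stop at 2 in either direction. CA9, ENO2, SLC2A3, EGLN3 and VLDLR were reddest in JNKKO acini with dimerizer and TGF-β1 or with dimerizer, and WT columns were mostly blue for them.

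JNKKO acini had more transcript from most of these genes than WT acini, most of all under dimerizer with TGF-β1. There, 32 of 36 members rose and 2 fell in JNKKO against WT acini, where 26.5% of the 16911 genes tested rose and 26.4% fell (edgeR quasi-likelihood F test, Benjamini-Hochberg adjusted p under 0.05 over all genes tested). The median log2 difference was 0.74 over members and 0.00 over all genes. Under dimerizer alone 31 members rose and 0 fell, against 21.6% and 18.5% of all genes, with medians of 0.42 and 0.00. In control acini 22 members rose and 5 fell, against 25.8% and 23.5% of all genes, with medians of 0.18 and 0.01. In fits without 1 library, 18 to 21 rose and 5 fell in control. The largest differences under dimerizer with TGF-β1 were those of CA9, ENO2, SLC2A3, VLDLR and EGLN3, and the 2 that fell were PFKM and HK2. In control acini the 5 that fell were HK2, CA12, HK1, ENO1 and PFKM.

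**Figure D2:**
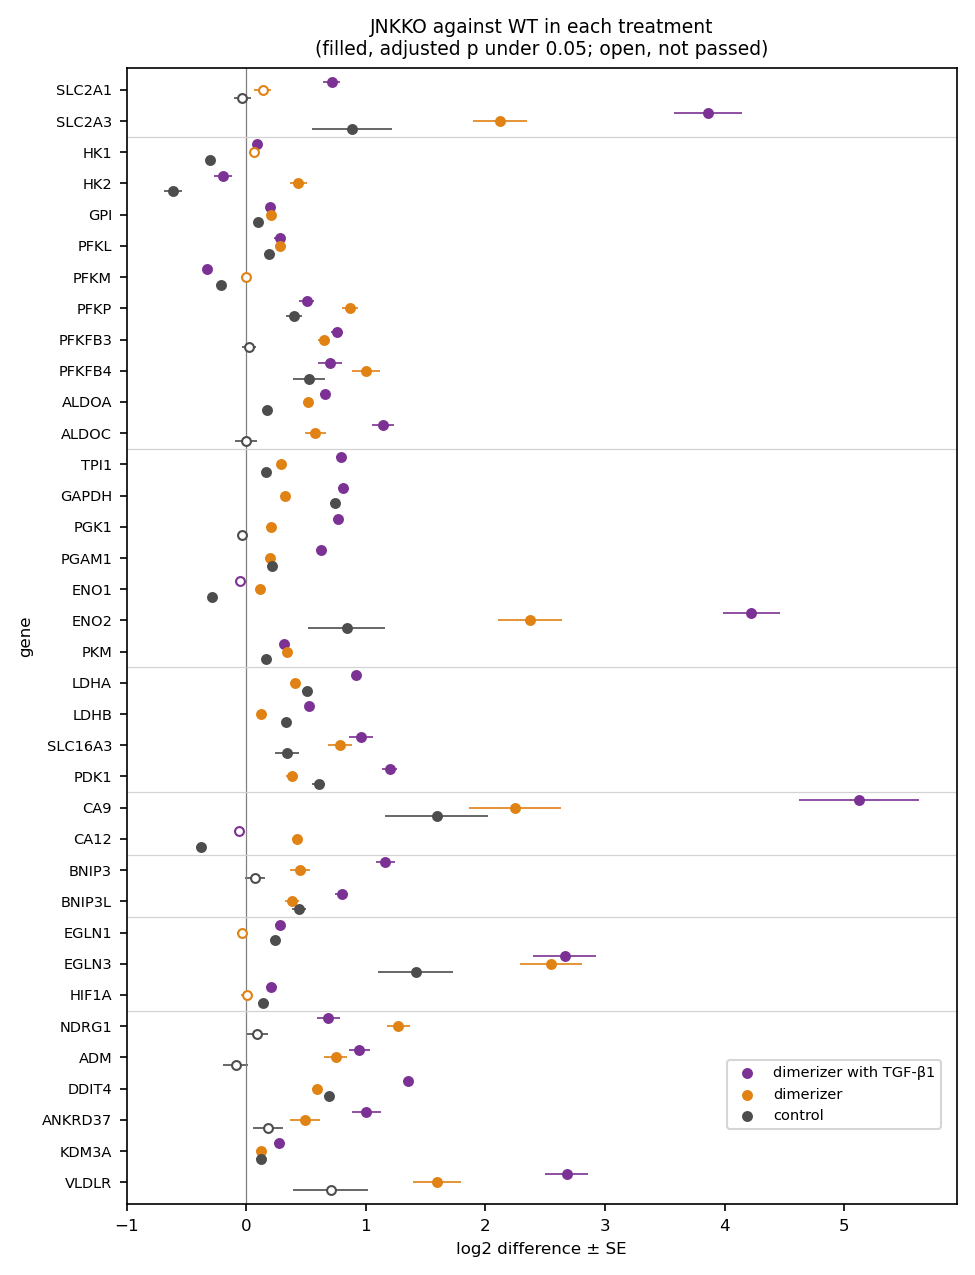
Log2 difference of JNKKO against WT acini ± SE for each of the 36 genes under dimerizer with TGF-β1 (purple), dimerizer (orange) and control (grey); filled points passed an adjusted p of 0.05 and open points did not. CA9 reached 5.12 and ENO2 4.22 under dimerizer with TGF-β1, while most enzymes lay between 0 and 1.

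Dimerizer raised the set in JNKKO acini. Against JNKKO control, 28 members rose and 0 fell, where 22.5% of all genes rose and 17.9% fell, and the median was 0.31 over members and 0.01 over all genes. In WT acini, dimerizer against control gave 17 rises and 5 falls, against 30.3% and 25.6% of all genes, with medians of 0.12 and 0.03. The WT falls were in HK2, HK1, ENO1, PFKM and GPI, all of them glycolytic enzymes. The interaction, the JNKKO effect minus the WT effect, was above 0 for 19 members and below 0 for 4 that passed the test, against 21.4% and 21.2% of all genes, with medians of 0.33 and 0.01. On deposited TPM (limma, log2 of TPM + 1), where the all-gene median of the interaction was -0.09, 13 members were above and 7 below.

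TGF-β1 added to dimerizer moved members in both directions, as it did all genes. In JNKKO acini 18 members rose and 12 fell against dimerizer alone, where 30.5% of all genes rose and 30.3% fell, with medians of 0.20 and -0.01. In WT acini 11 rose and 17 fell, against 33.4% and 31.8% of all genes, with medians of -0.06 and 0.00. The 12 falls in JNKKO acini and the 11 rises in WT acini were near the shares of all genes. On deposited TPM, where the all-gene medians were 0.16 in JNKKO and 0.11 in WT acini, the splits were 22 rises and 4 falls in JNKKO acini and 14 rises and 12 falls in WT acini. The interaction with TGF-β1 was above 0 for 19 members and below 0 for 6, against 14.1% and 18.8% of all genes, with medians of 0.26 and -0.02. The 6 below 0 were near the share of all genes. Against control, dimerizer with TGF-β1 gave 27 rises and 7 falls in JNKKO acini, where 33.8% and 33.4% of all genes rose and fell, with medians of 0.64 and -0.01. In WT acini it gave 14 rises and 13 falls, not far from the 31.3% and 30.5% of all genes, with medians of 0.04 and -0.02. Without WT dimerizer with TGF-β1 replicate 3, whose tag contradicts its title, this balance turned to 11 rises and 15 falls, that of TGF-β1 added to dimerizer in WT acini was 9 and 16, and the interaction counts were 20 and 6. On deposited TPM, dimerizer with TGF-β1 against control gave 30 rises and 3 falls in JNKKO acini and 20 rises and 7 falls in WT acini.

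**Figure D3:**
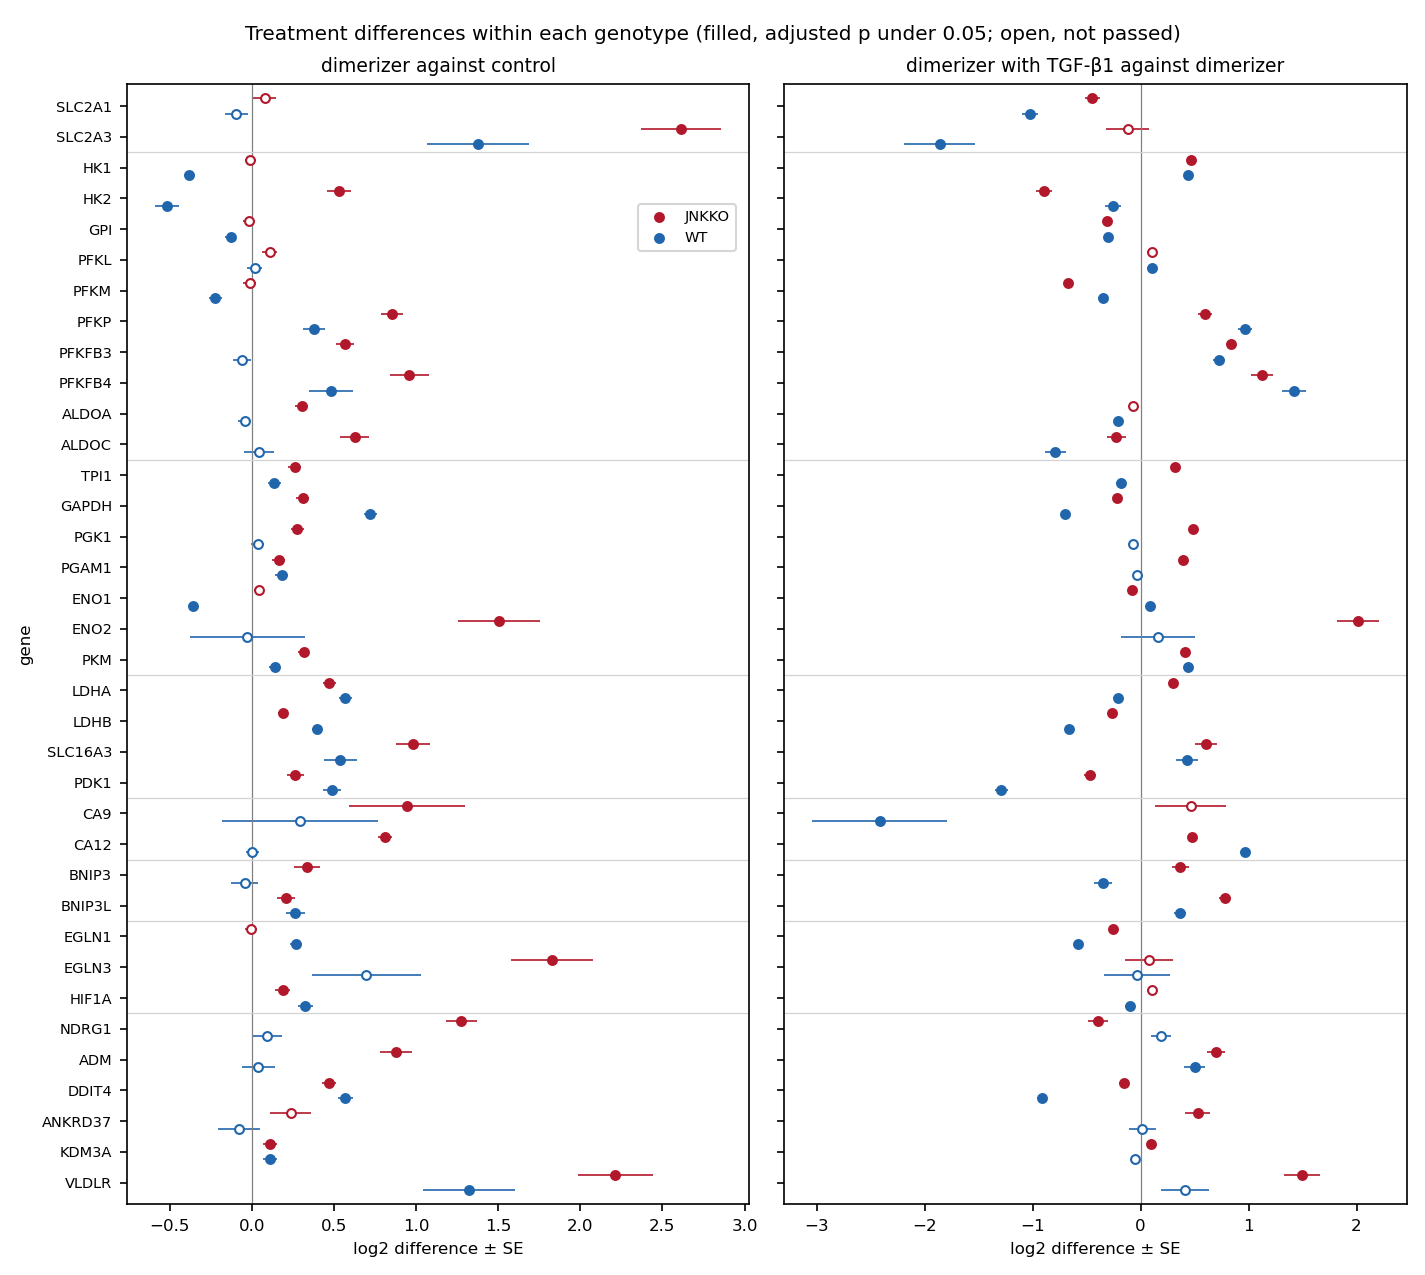
Log2 difference ± SE for each gene in JNKKO (red) and WT acini (blue), for dimerizer against control (left) and dimerizer with TGF-β1 against dimerizer (right); filled points passed an adjusted p of 0.05. SLC2A3, EGLN3, ENO2 and NDRG1 moved by 1.28 or more with dimerizer in JNKKO acini, and CA9 fell by 2.42 with TGF-β1 in WT acini.

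Both glucose transporters were higher in JNKKO than in WT acini under dimerizer with TGF-β1, and SLC2A3 was the more variable one. SLC2A1 is the basal glucose carrier of most cells. In JNKKO acini, SLC2A1 stood at 121, 131 and 109.9 CPM with dimerizer and TGF-β1, 169, 149.6 and 173 CPM with dimerizer and 162, 152 and 153 CPM in control. WT acini had SLC2A1 at 81.8, 66.4 and 72.0 CPM with dimerizer and TGF-β1, 148, 152 and 147 CPM with dimerizer and 164, 153 and 161 CPM in control. The lowest JNKKO library with TGF-β1 lay above the highest WT one, and the control groups overlapped. Adding TGF-β1 lowered SLC2A1 in both genotypes, with a log2 difference of -0.45 ± 0.07 (SE, adjusted p = 4.10e-05) in JNKKO acini and -1.02 ± 0.07 (SE, adjusted p = 1.74e-09) in WT acini. The interaction was 0.58 ± 0.10 (SE, adjusted p = 3.50e-04). JNKKO acini differed from WT acini by 0.71 ± 0.07 (SE, adjusted p = 4.47e-07) with TGF-β1 and -0.03 ± 0.07 (SE, adjusted p = 0.716) in control, which did not pass.

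SLC2A3, a carrier with high affinity for glucose that is typical of neurons, lies on chromosome 12 between 7919230 and 7936275. In JNKKO acini, SLC2A3 stood at 13.5, 15.7 and 11.97 CPM with dimerizer and TGF-β1, 14.1, 14.9 and 15.7 CPM with dimerizer and 2.15, 2.72 and 2.45 CPM in control. WT acini had SLC2A3 at 0.393, 0.895 and 1.54 CPM with dimerizer and TGF-β1, 3.98, 3.41 and 2.95 CPM with dimerizer and 2.06, 0.903 and 0.973 CPM in control. All 6 JNKKO libraries given dimerizer, with or without TGF-β1, stood above the other 12 libraries. With dimerizer the gene rose by 2.61 ± 0.25 (SE, adjusted p = 5.57e-07) in JNKKO and by 1.37 ± 0.31 (SE, adjusted p = 0.00152) in WT acini. The difference between those effects, 1.24 ± 0.42 (SE, adjusted p = 0.0269), lost its call without JNKKO control replicate 1 (1.15), WT dimerizer replicate 3 (1.13) or WT control replicate 1 (0.75). Added TGF-β1 gave -0.12 ± 0.20 (SE, adjusted p = 0.623) in JNKKO acini and a fall, with -1.86 ± 0.33 (SE, adjusted p = 1.39e-04), in WT acini, and the interaction was 1.74 ± 0.39 (SE, adjusted p = 0.00287). The genotype difference was 3.86 ± 0.28 (SE, adjusted p = 1.76e-08) with TGF-β1, 2.12 ± 0.23 (SE, adjusted p = 2.30e-06) with dimerizer and 0.88 ± 0.34 (SE, adjusted p = 0.0424) in control, where 5 of the 6 fits without 1 library lost the call and values ran from 0.67 to 1.37.

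Of the 10 genes of upper glycolysis, 8 rose and 2 fell in JNKKO against WT acini under dimerizer with TGF-β1. Under dimerizer 8 rose and 0 fell, and in control 5 rose and 3 fell. The shares of all genes that rose and fell were 26.5% and 26.4%, 21.6% and 18.5%, and 25.8% and 23.5% in the same order. The 2 falls with TGF-β1 and the 3 in control were near those shares. PFKP, the platelet form of phosphofructokinase, and PFKFB3 and PFKFB4, which make its activator fructose 2,6-bisphosphate, rose under both treatments. In JNKKO acini, PFKP stood at 479, 457 and 458 CPM with dimerizer and TGF-β1, 319, 277 and 324 CPM with dimerizer and 164, 167 and 179 CPM in control. WT acini had PFKP at 289.8, 343 and 352 CPM with dimerizer and TGF-β1, 168, 169.9 and 166 CPM with dimerizer and 126, 128 and 134 CPM in control. JNKKO libraries lay above WT libraries in each treatment, by 0.50 ± 0.06 (SE, adjusted p = 4.40e-06) with TGF-β1, 0.87 ± 0.07 (SE, adjusted p = 1.52e-08) with dimerizer and 0.40 ± 0.07 (SE, adjusted p = 1.10e-04) in control. PFKP rose with each treatment in both genotypes: by 0.85 ± 0.07 and 0.38 ± 0.07 with dimerizer in JNKKO and WT acini, and by 0.60 ± 0.06 and 0.96 ± 0.07 with added TGF-β1. The dimerizer effect was larger in JNKKO acini, with an interaction of 0.47 ± 0.09 (SE, adjusted p = 6.20e-04), and the TGF-β1 effect smaller, with -0.36 ± 0.09 (SE, adjusted p = 0.00564).

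In JNKKO acini, PFKFB4 stood at 52.2, 57.6 and 50.5 CPM with dimerizer and TGF-β1, 27.5, 19.7 and 26.7 CPM with dimerizer and 11.8, 12.5 and 13.6 CPM in control. WT acini had PFKFB4 at 29.4, 34.1 and 35.3 CPM with dimerizer and TGF-β1, 12.8, 11.4 and 12.6 CPM with dimerizer and 9.84, 8.03 and 8.49 CPM in control. The genotypes did not overlap in any treatment. PFKFB4 was the member that rose most with TGF-β1 in WT acini, by 1.42 ± 0.11 (SE, adjusted p = 5.19e-09), beside 1.12 ± 0.10 (SE, adjusted p = 4.68e-08) in JNKKO acini. The interaction of PFKFB4 with TGF-β1 was -0.30 ± 0.15 (SE, adjusted p = 0.151). It exceeded WT in JNKKO acini by 0.70 ± 0.10 with TGF-β1, 0.9999 ± 0.12 with dimerizer and 0.52 ± 0.13 in control, all passing. PFKFB3 did so by 0.76 ± 0.05 and 0.65 ± 0.05 in the treated groups, with 0.02 ± 0.06 (SE, adjusted p = 0.767) in control, and its interaction with dimerizer was 0.63 ± 0.08 (SE, adjusted p = 1.26e-07).

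HK2, the inducible hexokinase bound to mitochondria, was highest in WT control acini and JNKKO acini with dimerizer. In JNKKO acini, HK2 stood at 71.6, 75.7 and 67.0 CPM with dimerizer and TGF-β1, 132, 129 and 137 CPM with dimerizer and 91.7, 91.4 and 92.4 CPM in control. WT acini had HK2 at 95.7, 76.8 and 73.2 CPM with dimerizer and TGF-β1, 96.0, 99.4 and 98.7 CPM with dimerizer and 149, 136 and 137 CPM in control. JNKKO libraries lay below WT libraries in control and above them with dimerizer. Dimerizer raised it in JNKKO acini, by 0.53 ± 0.07 (SE, adjusted p = 1.94e-05), and lowered it in WT acini, with -0.52 ± 0.07 (SE, adjusted p = 1.05e-05), so that the interaction was 1.05 ± 0.10 (SE, adjusted p = 3.76e-07). TGF-β1 lowered it in both, with -0.89 ± 0.07 (SE, adjusted p = 1.47e-08) in JNKKO and -0.26 ± 0.07 (SE, adjusted p = 0.00531) in WT acini, with an interaction of -0.63 ± 0.10 (SE, adjusted p = 1.76e-04). The genotype difference was -0.61 ± 0.07 (SE, adjusted p = 2.46e-06) in control and 0.43 ± 0.07 (SE, adjusted p = 1.27e-04) with dimerizer. With TGF-β1 it was -0.20 ± 0.08 (SE, adjusted p = 0.0370); the groups overlapped, and the call was lost without JNKKO replicate 1 (-0.18), JNKKO replicate 3 (-0.15) or WT replicate 1 (-0.06). HK1, the hexokinase of most tissues, had 252, 241 and 248 CPM in JNKKO acini with dimerizer and 248.8, 247 and 251 CPM in JNKKO control acini, a difference of -0.01 ± 0.03 (SE, adjusted p = 0.826). In WT acini it had 241, 232 and 236 CPM with dimerizer and 299, 309 and 317 CPM in control, a difference of -0.38 ± 0.03 (SE, adjusted p = 6.65e-11).

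The other enzymes of upper glycolysis also differed between genotypes under dimerizer with TGF-β1. PFKM, the muscle form of phosphofructokinase, fell with TGF-β1, with -0.67 ± 0.04 in JNKKO and -0.35 ± 0.04 in WT acini, and between genotypes the difference was -0.33 ± 0.04 (SE, adjusted p = 6.35e-08) there. It stood at 118, 114 and 109 CPM in JNKKO acini with dimerizer and TGF-β1, against 151, 142 and 135 CPM in WT acini. ALDOC, the brain form of aldolase, had 17.5, 16.8 and 16.5 CPM in JNKKO acini with dimerizer and TGF-β1 and 6.80, 8.15 and 8.11 CPM in WT acini, a difference of 1.14 ± 0.10 (SE, adjusted p = 4.44e-11). For ALDOA, the main aldolase, the same comparison gave 0.66 ± 0.04 (SE, adjusted p = 5.35e-14). PFKL, the liver form, and GPI, the isomerase after hexokinase, differed by 0.28 ± 0.05 and 0.20 ± 0.04 there.

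All 7 genes of lower glycolysis rose in JNKKO against WT acini under dimerizer, and 6 of 7 under dimerizer with TGF-β1. In control 5 of 7 rose and ENO1 fell. Of all genes, 21.6%, 26.5% and 25.8% rose in the same order, and 23.5% fell in control. Under dimerizer ENO1 was higher in JNKKO acini by 0.12 ± 0.03 (SE, adjusted p = 0.00251) on counts, whereas deposited TPM gave -0.02. ENO2, the neuronal enolase, on chromosome 12 between 6913745 and 6923698, changed most. In JNKKO acini, ENO2 stood at 43.5, 49.0 and 35.9 CPM with dimerizer and TGF-β1, 12.8, 7.82 and 11.5 CPM with dimerizer and 3.24, 4.24 and 3.75 CPM in control. WT acini had ENO2 at 1.69, 2.25 and 2.93 CPM with dimerizer and TGF-β1, 1.99, 2.07 and 2.08 CPM with dimerizer and 3.11, 1.39 and 1.75 CPM in control. JNKKO libraries with TGF-β1 were the highest and did not overlap any other group. TGF-β1 raised ENO2 in JNKKO acini, by 2.01 ± 0.19 (SE, adjusted p = 5.24e-07), while WT acini gave 0.16 ± 0.34 (SE, adjusted p = 0.705) with overlapping groups, and the interaction was 1.85 ± 0.40 (SE, adjusted p = 0.00255). Dimerizer raised it by 1.504 ± 0.25 (SE, adjusted p = 2.70e-04) in JNKKO acini, against -0.03 ± 0.35 (SE, adjusted p = 0.954) in WT acini. That interaction, 1.53 ± 0.43 (SE, adjusted p = 0.0115), was 1.11 and no longer passed without WT control replicate 1. In JNKKO against WT acini the difference was 4.22 ± 0.24 (SE, adjusted p = 2.84e-09) with TGF-β1 and 2.37 ± 0.27 (SE, adjusted p = 8.06e-06) with dimerizer. In control it was 0.84 ± 0.32 (SE, adjusted p = 0.0448), with a call that 5 of 6 fits without 1 library lost, at values from 0.61 to 1.26.

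ENO1, the common enolase, kept a narrower range. It had 1672, 1660.2 and 1663 CPM in JNKKO acini with dimerizer and TGF-β1 and 1668, 1742 and 1771 CPM in WT acini, which overlapped, and 1684, 1724 and 1711 CPM in JNKKO control acini, against 2033, 2072 and 2140.2 CPM in WT control acini. Dimerizer lowered ENO1 in WT acini, with -0.36 ± 0.03 (SE, adjusted p = 3.93e-11), and gave 0.04 ± 0.03 (SE, adjusted p = 0.266) in JNKKO acini.

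GAPDH, which oxidises glyceraldehyde phosphate and is often used as a reference gene, differed between most groups. In JNKKO acini, GAPDH stood at 3124, 3124 and 3028 CPM with dimerizer and TGF-β1, 3735, 3344 and 3723 CPM with dimerizer and 2872, 2956 and 2892 CPM in control. WT acini had GAPDH at 1648, 1814 and 1846 CPM with dimerizer and TGF-β1, 2906, 2915 and 2797 CPM with dimerizer and 1696, 1749 and 1785 CPM in control. WT acini with dimerizer stood near the JNKKO control level, and the other WT groups were lower. Dimerizer raised GAPDH by 0.31 ± 0.04 (SE, adjusted p = 3.89e-07) in JNKKO acini and by more, 0.72 ± 0.04 (SE, adjusted p = 8.69e-15), in WT acini, and the interaction was -0.41 ± 0.06 (SE, adjusted p = 1.03e-06). TGF-β1 lowered it on counts, with -0.22 ± 0.04 (SE, adjusted p = 2.63e-05) in JNKKO acini, where deposited TPM gave 0.051, and -0.70 ± 0.04 (SE, adjusted p = 4.69e-15) in WT acini. The interaction with TGF-β1 was 0.48 ± 0.06 (SE, adjusted p = 1.59e-07). The JNKKO minus WT difference was 0.81 ± 0.04 with TGF-β1, 0.33 ± 0.04 with dimerizer and 0.74 ± 0.04 in control, all passing.

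PGK1, which makes ATP in the next step, was higher in JNKKO acini under both treatments. In JNKKO acini, PGK1 stood at 539, 569 and 515 CPM with dimerizer and TGF-β1, 393, 362 and 403 CPM with dimerizer and 316, 326 and 314 CPM in control. WT acini had PGK1 at 308, 326 and 322 CPM with dimerizer and TGF-β1, 331, 342 and 329 CPM with dimerizer and 322, 337 and 318 CPM in control. The 9 WT libraries and the 3 JNKKO control libraries lay within 308 to 342 CPM, and the JNKKO libraries with dimerizer and TGF-β1 at 515 CPM or above. JNKKO acini differed from WT acini by 0.76 ± 0.04 (SE, adjusted p = 2.46e-15) with TGF-β1, 0.21 ± 0.04 (SE, adjusted p = 1.12e-04) with dimerizer and -0.03 ± 0.04 (SE, adjusted p = 0.530) in control. The interactions were 0.55 ± 0.06 (SE, adjusted p = 1.16e-08) with TGF-β1 and 0.24 ± 0.06 (SE, adjusted p = 0.00100) with dimerizer. TPI1 and PGAM1, an isomerase and a mutase of the same stretch, rose with TGF-β1 in JNKKO acini by 0.31 ± 0.04 and 0.39 ± 0.04. In WT acini they gave -0.19 ± 0.04 (SE, adjusted p = 9.60e-05) and -0.03 ± 0.04 (SE, adjusted p = 0.512). PKM, the pyruvate kinase, rose with TGF-β1 in both genotypes, by 0.41 ± 0.03 in JNKKO and 0.44 ± 0.03 in WT acini, with an interaction of -0.03 ± 0.05 (SE, adjusted p = 0.715). PGAM1 shares much of its sequence with PGAM4, a retrocopy that held 3.19 to 19.3 counts per library, so reads could be split between them.

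All 4 genes of pyruvate and lactate handling were higher in JNKKO than in WT acini in each treatment. Of all genes, 26.5% rose with dimerizer and TGF-β1, 21.6% with dimerizer and 25.8% in control. LDHA, the lactate dehydrogenase subunit that favours lactate, is a known HIF target. In JNKKO acini, LDHA stood at 1492, 1492 and 1438 CPM with dimerizer and TGF-β1, 1208, 1139 and 1241 CPM with dimerizer and 866, 881 and 841 CPM in control. WT acini had LDHA at 723, 803 and 810.1 CPM with dimerizer and TGF-β1, 891, 934 and 879.8 CPM with dimerizer and 603, 625 and 596 CPM in control. The genotypes did not overlap in any treatment. The genotype difference was 0.92 ± 0.04 (SE, adjusted p = 4.94e-17) with TGF-β1, 0.41 ± 0.04 (SE, adjusted p = 2.18e-09) with dimerizer and 0.51 ± 0.04 (SE, adjusted p = 1.60e-11) in control. On counts TGF-β1 raised LDHA in JNKKO acini, by 0.30 ± 0.04 (SE, adjusted p = 1.35e-07), and lowered it in WT acini, with -0.21 ± 0.04 (SE, adjusted p = 2.95e-05), an interaction of 0.51 ± 0.06 (SE, adjusted p = 3.71e-08). On deposited TPM the WT groups overlapped, at 791 ± 49.8 TPM with dimerizer and TGF-β1 and 819 ± 29.7 TPM with dimerizer (SD, n = 3 each). LDHB, the subunit of oxidative tissues, fell with TGF-β1 in both, with -0.26 ± 0.03 in JNKKO and -0.67 ± 0.03 in WT acini. JNKKO against WT for LDHB was 0.52 ± 0.03 with TGF-β1 and 0.33 ± 0.03 in control, and 0.12 ± 0.03 with dimerizer, where deposited TPM gave -0.02.

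SLC16A3 encodes MCT4, which exports lactate from glycolytic cells. In JNKKO acini, SLC16A3 stood at 634, 626 and 651 CPM with dimerizer and TGF-β1, 412, 407 and 436 CPM with dimerizer and 202, 209.8 and 224 CPM in control. WT acini had SLC16A3 at 267, 339 and 378 CPM with dimerizer and TGF-β1, 247, 248 and 235 CPM with dimerizer and 149.8, 172 and 180.3 CPM in control. The lowest JNKKO library lay above the highest WT library in each treatment. It rose with dimerizer by 0.98 ± 0.10 (SE, adjusted p = 4.21e-06) in JNKKO and 0.54 ± 0.10 (SE, adjusted p = 5.31e-04) in WT acini, and again with TGF-β1 by 0.61 ± 0.10 and 0.43 ± 0.10. The interaction with dimerizer, 0.44 ± 0.14 (SE, adjusted p = 0.0243), was lost in 5 of 12 fits without 1 library, at 0.39 to 0.42. Between genotypes the difference was 0.96 ± 0.10 (SE, adjusted p = 2.65e-06) with TGF-β1 and 0.78 ± 0.10 (SE, adjusted p = 3.30e-05) with dimerizer. In control it was 0.34 ± 0.10 (SE, adjusted p = 0.0151), which did not pass without JNKKO control replicate 3 (0.30) or WT control replicate 1 (0.26).

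PDK1, the pyruvate dehydrogenase kinase induced by HIF, fell with TGF-β1. In JNKKO acini, PDK1 stood at 32.0, 33.1 and 31.4 CPM with dimerizer and TGF-β1, 43.2, 45.3 and 45.2 CPM with dimerizer and 39.6, 37.1 and 34.6 CPM in control. WT acini had PDK1 at 13.4, 15.2 and 13.5 CPM with dimerizer and TGF-β1, 34.7, 33.2 and 34.8 CPM with dimerizer and 25.5, 24.5 and 23.3 CPM in control. WT acini with dimerizer and TGF-β1 had the 3 lowest values. The fall was -0.47 ± 0.05 (SE, adjusted p = 1.12e-08) in JNKKO and -1.29 ± 0.06 (SE, adjusted p = 2.07e-17) in WT acini, with an interaction of 0.82 ± 0.08 (SE, adjusted p = 6.36e-09). In JNKKO against WT acini the difference was 1.20 ± 0.06 with TGF-β1, 0.38 ± 0.05 with dimerizer and 0.60 ± 0.06 in control, all passing. The interaction with dimerizer was -0.22 ± 0.08 (SE, adjusted p = 0.0204) on counts and 0.15 on median-scaled TPM, and it lost its call without JNKKO control replicate 1 (-0.17) or WT control replicate 3 (-0.19).

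The carbonic anhydrases CA9 and CA12 sit in the plasma membrane and hydrate carbon dioxide outside the cell, and CA9 is among the genes most strictly tied to HIF. CA9 lies on chromosome 9 between 35673856 and 35681159. In JNKKO acini, CA9 stood at 60.6, 59.7 and 52.8 CPM with dimerizer and TGF-β1, 47.6, 28.95 and 49.6 CPM with dimerizer and 23.6, 22.4 and 19.1 CPM in control. WT acini had CA9 at 0.121, 1.33 and 3.52 CPM with dimerizer and TGF-β1, 7.47, 11.1 and 7.89 CPM with dimerizer and 12.4, 3.68 and 5.40 CPM in control. The lowest JNKKO library stood above the highest WT library, and WT libraries spread widely, with WT control replicate 1 above the other 2. The JNKKO minus WT difference was 5.12 ± 0.50 (SE, adjusted p = 1.63e-06) with TGF-β1, 2.25 ± 0.39 (SE, adjusted p = 4.26e-04) with dimerizer and 1.59 ± 0.43 (SE, adjusted p = 0.00776) in control. Added TGF-β1 gave 0.46 ± 0.33 (SE, adjusted p = 0.244) in JNKKO acini, which did not pass. It lowered CA9 in WT acini, with -2.42 ± 0.62 (SE, adjusted p = 0.00409), or -3.66 without replicate 3 of WT dimerizer with TGF-β1, whose tag contradicts its title. The interaction was 2.88 ± 0.71 (SE, adjusted p = 0.00711). Against control, dimerizer with TGF-β1 gave 1.41 ± 0.35 (SE, adjusted p = 0.00282) in JNKKO acini. In WT acini it gave -2.12 ± 0.65 (SE, adjusted p = 0.0127), which was -3.39 without that replicate and -1.45, not passing, without WT control replicate 1. Dimerizer alone gave 0.95 ± 0.35 (SE, adjusted p = 0.0492) in JNKKO acini, a call that 5 of 6 fits without 1 library lost at 0.80 to 1.01, and 0.29 ± 0.47 (SE, adjusted p = 0.629) in WT acini.

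CA12 followed another pattern. In JNKKO acini, CA12 stood at 958, 984 and 876 CPM with dimerizer and TGF-β1, 680.0, 668 and 675 CPM with dimerizer and 375, 383 and 395 CPM in control. WT acini had CA12 at 915, 1031 and 997 CPM with dimerizer and TGF-β1, 514, 490.3 and 502 CPM with dimerizer and 486, 508 and 509.8 CPM in control. With TGF-β1 the genotypes overlapped, at a difference of -0.06 ± 0.04 (SE, adjusted p = 0.210). In control acini JNKKO libraries were all lower, with -0.38 ± 0.04 (SE, adjusted p = 9.18e-09), and with dimerizer all higher, by 0.43 ± 0.04 (SE, adjusted p = 2.02e-09). Dimerizer raised CA12 in JNKKO acini, by 0.81 ± 0.04 (SE, adjusted p = 4.14e-15), and gave 0.00 ± 0.04 (SE, adjusted p = 0.966) in WT acini, with an interaction of 0.81 ± 0.06 (SE, adjusted p = 5.91e-12). The TGF-β1 effect was smaller in JNKKO acini, 0.48 ± 0.04, than in WT acini, 0.97 ± 0.04, with an interaction of -0.49 ± 0.06 (SE, adjusted p = 1.59e-07).

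BNIP3 and BNIP3L are receptors on mitochondria that mark them for autophagy. In JNKKO acini, BNIP3 stood at 77.5, 89.8 and 74.2 CPM with dimerizer and TGF-β1, 67.1, 57.8 and 62.7 CPM with dimerizer and 50.6, 48.5 and 49.2 CPM in control. WT acini had BNIP3 at 38.2, 36.2 and 33.5 CPM with dimerizer and TGF-β1, 45.9, 44.1 and 47.1 CPM with dimerizer and 52.6, 41.8 and 46.9 CPM in control. The genotypes overlapped in control and not under either treatment. TGF-β1 raised BNIP3 in JNKKO acini, by 0.37 ± 0.08 (SE, adjusted p = 6.16e-04), and lowered it in WT acini, with -0.35 ± 0.08 (SE, adjusted p = 0.00158). The interaction was 0.71 ± 0.12 (SE, adjusted p = 1.26e-04), and JNKKO acini differed from WT acini by 1.16 ± 0.08 (SE, adjusted p = 2.12e-09) with TGF-β1, 0.45 ± 0.08 (SE, adjusted p = 2.45e-04) with dimerizer and 0.07 ± 0.08 (SE, adjusted p = 0.516) in control. BNIP3L, by contrast, rose with TGF-β1 in both genotypes, by 0.78 ± 0.05 in JNKKO and 0.37 ± 0.06 in WT acini, with an interaction of 0.41 ± 0.08 (SE, adjusted p = 1.35e-04). It had 101, 109.7 and 98.6 CPM in JNKKO acini with dimerizer and TGF-β1, against 57.1, 64.3 and 56.6 CPM in WT acini.

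Among the genes of oxygen sensing, EGLN3 differed most between genotypes and HIF1A by less. EGLN3 is the prolyl hydroxylase that HIF itself induces, on chromosome 14 between 33924231 and 34462774. In JNKKO acini, EGLN3 stood at 70.0, 76.1 and 65.0 CPM with dimerizer and TGF-β1, 73.9, 54.4 and 72.3 CPM with dimerizer and 17.3, 18.7 and 20.4 CPM in control. WT acini had EGLN3 at 7.76, 12.1 and 13.6 CPM with dimerizer and TGF-β1, 10.9, 12.6 and 10.7 CPM with dimerizer and 11.2, 3.16 and 6.68 CPM in control. All 6 JNKKO libraries given dimerizer, with or without TGF-β1, exceeded all others, and JNKKO control libraries lay above all WT libraries. The genotype difference was 2.66 ± 0.26 (SE, adjusted p = 1.57e-06) with TGF-β1, 2.55 ± 0.26 (SE, adjusted p = 4.02e-06) with dimerizer and 1.42 ± 0.32 (SE, adjusted p = 0.00222) in control. Dimerizer raised it by 1.83 ± 0.25 (SE, adjusted p = 5.70e-05) in JNKKO acini and gave 0.70 ± 0.33 (SE, adjusted p = 0.0924) in WT acini, where the value was 1.22 and passed without WT control replicate 1. The interaction, 1.13 ± 0.42 (SE, adjusted p = 0.0455), passed in only 2 of 12 fits without 1 library and ran from 0.61 to 1.48. Added TGF-β1 gave 0.08 ± 0.22 (SE, adjusted p = 0.781) in JNKKO and -0.04 ± 0.30 (SE, adjusted p = 0.930) in WT acini.

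EGLN1, the main HIF hydroxylase of most cells, rose with dimerizer in WT acini. It had 134, 136 and 132 CPM in JNKKO acini with dimerizer and 134, 139 and 132 CPM in JNKKO control acini, and the groups overlapped. In WT acini it had 135, 140.4 and 137 CPM with dimerizer and 111, 114 and 118 CPM in control, a rise of 0.27 ± 0.04 (SE, adjusted p = 3.02e-07). The interaction was -0.28 ± 0.05 (SE, adjusted p = 6.36e-05).

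HIF1A encodes the oxygen-regulated HIF subunit, whose control is mainly at the protein level. In JNKKO acini, HIF1A stood at 154, 160.1 and 164 CPM with dimerizer and TGF-β1, 140.1, 159 and 146 CPM with dimerizer and 134, 126 and 132 CPM in control. WT acini had HIF1A at 132, 144 and 139 CPM with dimerizer and TGF-β1, 145, 152 and 148 CPM with dimerizer and 117, 125 and 113 CPM in control. The genotypes overlapped with dimerizer only. Between genotypes the difference was 0.21 ± 0.05 (SE, adjusted p = 3.03e-04) with TGF-β1, 0.00 ± 0.05 (SE, adjusted p = 0.963) with dimerizer and 0.14 ± 0.05 (SE, adjusted p = 0.0114) in control, and the control call was lost without JNKKO control replicate 1 (0.13) or WT control replicate 3 (0.11). Dimerizer raised it by 0.19 ± 0.05 (SE, adjusted p = 0.00142) in JNKKO and 0.33 ± 0.05 (SE, adjusted p = 5.24e-07) in WT acini.

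**Figure D4:**
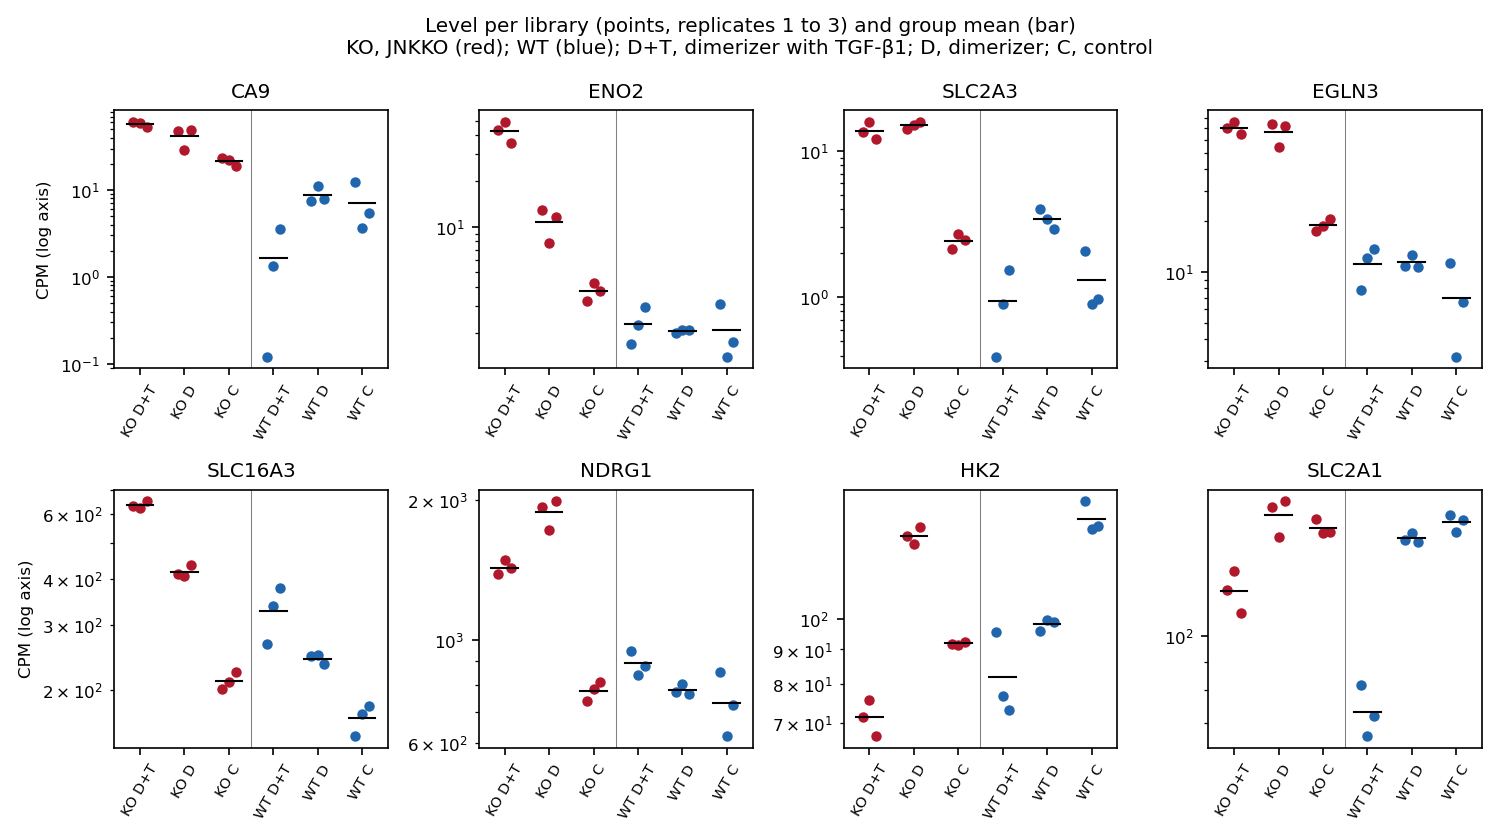
CPM per library on log axes for 8 genes, with JNKKO acini in red left of WT acini in blue; each point is 1 library, bars are group means, and treatments run from dimerizer with TGF-β1 (D+T) through dimerizer (D) to control (C). CA9, ENO2, SLC2A3, EGLN3 and SLC16A3 were highest in treated JNKKO acini, HK2 was highest in WT control and JNKKO dimerizer acini, and SLC2A1 was lowest in WT acini with dimerizer and TGF-β1.

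The other 6 hypoxia targets all rose in JNKKO against WT acini under dimerizer with TGF-β1 and under dimerizer. Of all genes, 26.5% and 21.6% rose there. In control 2 of the 6, DDIT4 and KDM3A, rose, near the 25.8% of all genes. KDM3A (0.12) lost its control call in 3 of 6 fits without 1 library. NDRG1, a stress-induced protein, responded to dimerizer in JNKKO acini. In JNKKO acini, NDRG1 stood at 1382, 1484 and 1426 CPM with dimerizer and TGF-β1, 1929.7, 1724 and 1986 CPM with dimerizer and 737, 782 and 810.5 CPM in control. WT acini had NDRG1 at 946, 841 and 879.6 CPM with dimerizer and TGF-β1, 773, 801 and 762.0 CPM with dimerizer and 852, 619.8 and 722 CPM in control. The 3 JNKKO dimerizer libraries lay at 1724 CPM or above, and the highest of the other 15 libraries was a JNKKO one with TGF-β1. Dimerizer gave 1.28 ± 0.09 (SE, adjusted p = 1.40e-07) in JNKKO and 0.09 ± 0.09 (SE, adjusted p = 0.435) in WT acini, an interaction of 1.18 ± 0.13 (SE, adjusted p = 7.68e-06). TGF-β1 lowered it in JNKKO acini, with -0.39 ± 0.09 (SE, adjusted p = 0.00225), with an interaction of -0.58 ± 0.13 (SE, adjusted p = 0.00376).

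ADM, the secreted peptide adrenomedullin that dilates vessels, rose with dimerizer in JNKKO acini. In JNKKO acini, ADM stood at 36.9, 38.0 and 38.4 CPM with dimerizer and TGF-β1, 25.4, 18.8 and 25.9 CPM with dimerizer and 12.8, 12.5 and 12.8 CPM in control. WT acini had ADM at 21.3, 17.9 and 19.6 CPM with dimerizer and TGF-β1, 14.6, 12.8 and 14.2 CPM with dimerizer and 14.9, 12.7 and 12.9 CPM in control. The control groups overlapped at -0.09 ± 0.10 (SE, adjusted p = 0.503), whereas JNKKO exceeded WT acini by 0.75 ± 0.09 (SE, adjusted p = 1.03e-06) with dimerizer and 0.94 ± 0.09 (SE, adjusted p = 4.67e-09) with TGF-β1. The interaction with dimerizer was 0.84 ± 0.14 (SE, adjusted p = 3.86e-05). DDIT4, an inhibitor of mTOR signalling, was higher in JNKKO acini throughout. In JNKKO acini, DDIT4 stood at 890.3, 880.5 and 888 CPM with dimerizer and TGF-β1, 990.2, 948 and 1019 CPM with dimerizer and 709, 718 and 709 CPM in control. WT acini had DDIT4 at 312, 353 and 375 CPM with dimerizer and TGF-β1, 641, 668 and 654 CPM with dimerizer and 426, 447 and 449 CPM in control. In JNKKO against WT acini the difference was 1.35 ± 0.04 (SE, adjusted p = 7.16e-19) with TGF-β1, 0.59 ± 0.04 (SE, adjusted p = 1.99e-11) with dimerizer and 0.69 ± 0.04 (SE, adjusted p = 4.56e-13) in control. The genotypes did not overlap in any treatment. TGF-β1 lowered it on counts, with -0.15 ± 0.04 (SE, adjusted p = 0.00326) in JNKKO acini, where deposited TPM gave 0.10, and -0.92 ± 0.04 (SE, adjusted p = 2.23e-16) in WT acini, and the interaction was 0.76 ± 0.06 (SE, adjusted p = 3.71e-10).

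VLDLR, a lipoprotein receptor that HIF induces, on chromosome 9 between 2621834 and 2660053, was the least abundant of these per length. In JNKKO acini, VLDLR stood at 10.9, 10.6 and 11.4 CPM with dimerizer and TGF-β1, 3.50, 4.92 and 3.18 CPM with dimerizer and 0.704, 0.741 and 1.07 CPM in control. WT acini had VLDLR at 1.39, 1.59 and 2.13 CPM with dimerizer and TGF-β1, 1.46, 1.25 and 1.15 CPM with dimerizer and 0.349, 0.387 and 0.806 CPM in control. The 3 JNKKO libraries with dimerizer and TGF-β1 stood above all others, and the control groups overlapped. The JNKKO minus WT difference was 2.68 ± 0.18 (SE, adjusted p = 5.69e-13) with TGF-β1, 1.59 ± 0.20 (SE, adjusted p = 2.69e-07) with dimerizer and 0.71 ± 0.31 (SE, adjusted p = 0.0617) in control. Dimerizer raised it by 2.21 ± 0.23 (SE, adjusted p = 4.92e-09) in JNKKO and 1.32 ± 0.28 (SE, adjusted p = 1.92e-04) in WT acini. TGF-β1 raised it further in JNKKO acini, by 1.49 ± 0.17 (SE, adjusted p = 6.87e-09), with 0.41 ± 0.22 (SE, adjusted p = 0.111) in WT acini and an interaction of 1.08 ± 0.28 (SE, adjusted p = 0.00336). ANKRD37, an ankyrin repeat protein induced by HIF, was higher in JNKKO acini by 1.004 ± 0.12 with TGF-β1 and 0.49 ± 0.12 with dimerizer. KDM3A, a histone demethylase, was higher by 0.27 ± 0.04 (SE, adjusted p = 4.48e-06) with TGF-β1.

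Shares within sets of paralogs were taken from TPM. EGLN3 made up 65.6% ± 2.69 of the summed TPM of EGLN1 and EGLN3 in JNKKO acini with dimerizer and TGF-β1, 60.03% ± 3.51 with dimerizer and 31.1% ± 2.53 in control (SD, n = 3 each). In WT acini the EGLN3 share was 25.6% ± 6.33, 19.5% ± 1.91 and 15.5% ± 9.02 in the same order (SD, n = 3 each). PFKP was 61.7% ± 0.654 of the 3 phosphofructokinases in JNKKO acini with dimerizer and TGF-β1 and 51.7% ± 3.84 in WT acini, against 32.5% ± 0.818 in JNKKO and 24.4% ± 1.19 in WT control acini (SD, n = 3 each). PFKP thus stood above PFKM per length in both TGF-β1 groups and below it in both control groups. LDHA was 64.8% ± 0.394 of LDHA and LDHB in JNKKO and 58.5% ± 1.29 in WT acini with dimerizer and TGF-β1, against 50.7% ± 0.381 and 47.8% ± 0.254 in control (SD, n = 3 each). HK2 stayed below HK1 in all 6 groups, from 11.4% ± 0.638 in JNKKO acini with dimerizer and TGF-β1 to 24.7% ± 0.432 in JNKKO acini with dimerizer (SD, n = 3 each). Despite its rise, ENO2 was 1.73% ± 0.265 of the 2 enolases in JNKKO acini with dimerizer and TGF-β1, against 0.0965% ± 0.0293 in WT acini, and SLC2A3 was 9.57% ± 0.414 of the 2 transporters, against 1.21% ± 0.748 (SD, n = 3 each).

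**Figure D5:**
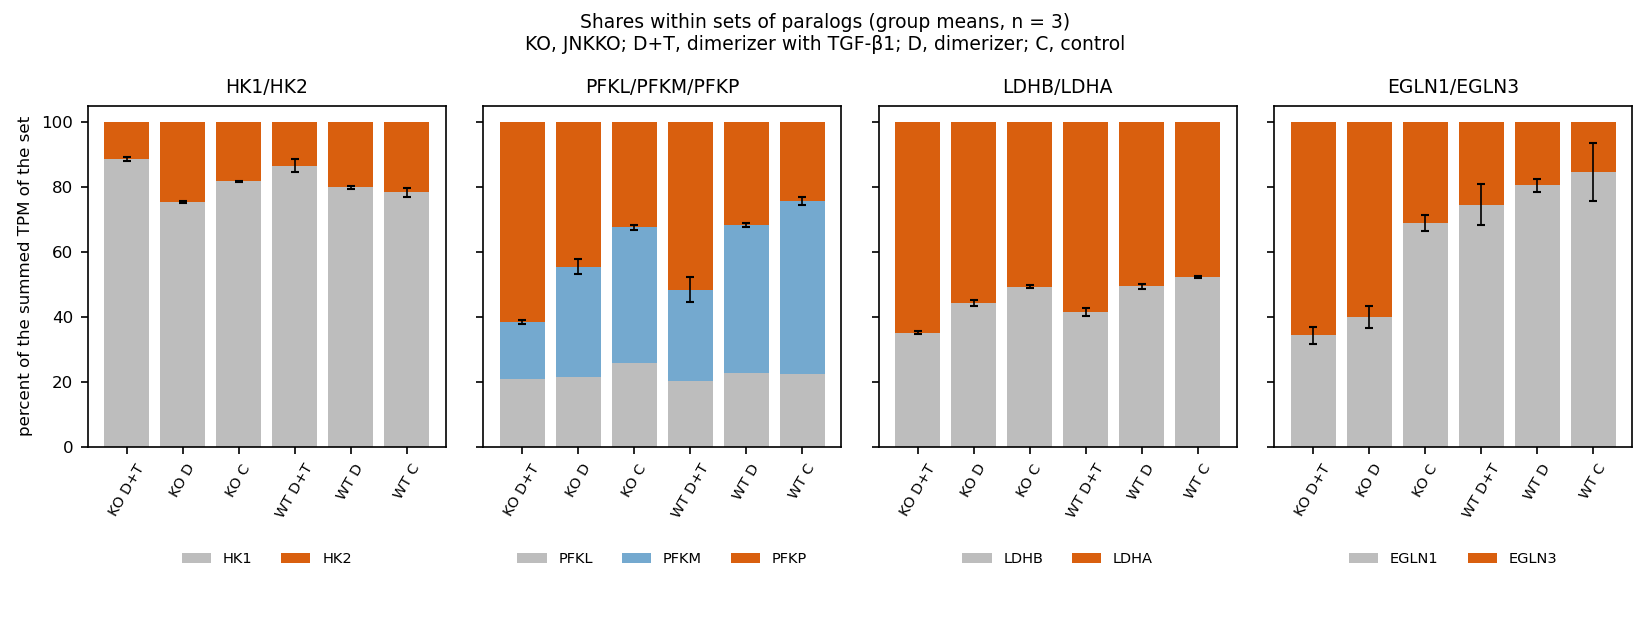
Shares of the summed TPM within 4 sets of paralogs, as stacked group means (n = 3) with the SD of the uppermost gene drawn at its lower edge; JNKKO groups stand left of WT groups. EGLN3 took 65.6% in JNKKO acini with dimerizer and TGF-β1 and 25.6% in WT acini, and PFKP 61.7% and 51.7%.

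Other genes of the same pathways were counted for comparison. Of 34 other hypoxia-induced genes tested, 22 rose and 6 fell in JNKKO against WT acini under dimerizer with TGF-β1, 18 rose and 3 fell under dimerizer, and 16 rose and 8 fell in control, with medians of 0.34, 0.16 and 0.02. Of all genes, 26.5% rose and 26.4% fell in the first of these comparisons, 21.6% and 18.5% in the second and 25.8% and 23.5% in the third. ANGPTL4, a secreted lipase inhibitor, averaged 816 CPM in JNKKO acini with dimerizer and TGF-β1, 74.6 CPM with dimerizer and 22.9 CPM in control. In WT acini it averaged 356, 16.6 and 25.7 CPM in the same order, and TGF-β1 raised it by 3.45 ± 0.17 (SE, adjusted p = 6.93e-10) in JNKKO and 4.43 ± 0.19 (SE, adjusted p = 1.31e-10) in WT acini. STC1, the secreted hormone stanniocalcin, averaged 22.2 CPM in JNKKO and 1.59 CPM in WT acini with dimerizer and TGF-β1, a difference of 3.80 ± 0.29 (SE, adjusted p = 8.66e-08). CITED2, which competes with HIF for its coactivator, was lower in JNKKO acini there, with -1.05 ± 0.13 (SE, adjusted p = 1.23e-05).

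Glycolysis genes outside the set were counted too. Of 20 other glycolysis and pyruvate genes tested, 4 rose and 10 fell in JNKKO against WT acini under dimerizer with TGF-β1, 2 rose and 9 fell under dimerizer and 5 rose and 8 fell in control. The shares of all genes were 26.5% and 26.4%, 21.6% and 18.5%, and 25.8% and 23.5% in the same order, so the 5 rises in control were near the share of all genes. PDK4, the pyruvate dehydrogenase kinase of fasting, averaged 8.04 CPM in JNKKO and 39.7 CPM in WT acini with dimerizer and TGF-β1, a difference of -2.30 ± 0.15 (SE, adjusted p = 9.77e-09). SLC16A1, the transporter MCT1, was higher in JNKKO acini by 0.56 ± 0.04 (SE, adjusted p = 1.75e-13). BPGM, which makes bisphosphoglycerate from a glycolytic intermediate, rose with TGF-β1 by 2.37 ± 0.08 in JNKKO and 2.66 ± 0.08 in WT acini. Of 7 genes of the pentose phosphate pathway 5 fell and 0 rose with TGF-β1 in JNKKO acini, and 5 fell and 2 rose in WT acini. Of all genes 30.3% fell and 30.5% rose in JNKKO acini, and 31.8% fell and 33.4% rose in WT acini, a share near that of the 2 rises. TKT, its transketolase, averaged 304 CPM in JNKKO acini with dimerizer and TGF-β1 and 634 CPM with dimerizer, a difference of -1.06 ± 0.03 (SE, adjusted p = 2.15e-21). Of 3 gluconeogenesis genes tested, PCK2, the mitochondrial carboxykinase, was higher in JNKKO than in WT acini under dimerizer by 1.38 ± 0.13 (SE, adjusted p = 4.40e-07).

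The HIF pathway's own regulators were counted in the same way. Of 10 tested, 6 rose and 3 fell in JNKKO against WT acini under dimerizer with TGF-β1, where 26.5% of all genes rose and 26.4% fell. Under dimerizer 3 rose and 1 fell, near the 21.6% and 18.5% of all genes, and in control 1 rose and 6 fell, against 25.8% and 23.5%. With TGF-β1 added to dimerizer, 10 rose and 0 fell in JNKKO acini and 7 rose and 0 fell in WT acini, against 30.5% and 30.3%, and 33.4% and 31.8%, of all genes. EPAS1, the other oxygen-regulated HIF subunit, averaged 285 CPM in JNKKO and 566 CPM in WT acini with dimerizer and TGF-β1, a difference of -0.99 ± 0.04 (SE, adjusted p = 2.09e-16), opposite in sign to that of most members. Its rise with TGF-β1 in WT acini was 1.43 ± 0.05 (SE, adjusted p = 1.09e-20), and the interaction was -1.26 ± 0.06 (SE, adjusted p = 1.99e-14). ARNT2, a partner subunit of HIF, averaged 10.7 CPM in JNKKO and 4.32 CPM in WT acini with dimerizer and TGF-β1, a difference of 1.31 ± 0.12 (SE, adjusted p = 1.52e-10). Its paralog ARNT had higher counts and the other direction, at 83.3 CPM in JNKKO and 97.6 CPM in WT acini there.

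Markers of other cell types moved with genotype and treatment as well, and the immune, fibroblast and endothelial lists each held a rise and a fall. CD68, on the immune list but also made by other cells with many lysosomes, averaged 43.4 CPM in JNKKO and 13.3 CPM in WT acini with dimerizer and TGF-β1, a difference of 1.70 ± 0.12 (SE, adjusted p = 4.85e-09). CD14 of the same list fell, at 0.985 CPM in JNKKO and 1.64 CPM in WT acini, with -0.74 ± 0.23 (SE, adjusted p = 0.00800). The 6 immune markers summed to 41.6 to 46.5 CPM in JNKKO acini with dimerizer and TGF-β1, to 45.2 to 50.1 CPM in JNKKO acini with dimerizer and to 10.02 to 18.6 CPM in the other 4 groups, sums made mostly of CD68 in both groups of JNKKO acini that were high. DCN, on the fibroblast list, averaged 66.4 CPM in JNKKO and 102 CPM in WT acini with dimerizer and TGF-β1, a difference of -0.62 ± 0.11 (SE, adjusted p = 2.69e-04). PDGFRB of that list rose, with a difference of 1.36 ± 0.31 (SE, adjusted p = 4.42e-04) over its WT mean of 0.386 CPM. The 6 fibroblast markers, mostly DCN, summed to 62.6 to 77.5 CPM in JNKKO and to 90.2 to 122 CPM in WT acini with dimerizer and TGF-β1, against 18.002 to 34.5 CPM in the other 4 groups.

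TEK, an endothelial receptor for angiopoietins, averaged 5.92 CPM in JNKKO and 0.527 CPM in WT acini with dimerizer and TGF-β1, a difference of 3.49 ± 0.22 (SE, adjusted p = 4.15e-13). With dimerizer TEK averaged 19.0 CPM in JNKKO and 0.938 CPM in WT acini, and in control 1.04 CPM in JNKKO and 0.285 CPM in WT acini. KDR of the same list fell, at 12.9 CPM in JNKKO and 25.7 CPM in WT acini with dimerizer and TGF-β1. Its difference there was -0.99 ± 0.07 (SE, adjusted p = 1.28e-12), beside -1.05 with dimerizer and -0.65 in control. PECAM1 of that list rose with dimerizer and TGF-β1, by 2.14 ± 0.21 (SE, adjusted p = 1.26e-09) over its WT mean of 0.427 CPM. The sum of the 5 endothelial markers did not follow TEK: it ran from 20.3 to 21.5 CPM in JNKKO acini with dimerizer and TGF-β1, from 34.0 to 40.2 CPM in JNKKO acini with dimerizer and from 24.8 to 44.8 CPM in the other 4 groups. The 7 luminal markers summed to 16.1 to 17.9 CPM in JNKKO acini with dimerizer and TGF-β1, to 16.2 to 19.4 CPM in JNKKO acini with dimerizer and to 20.7 to 30.1 CPM in the other 4 groups. These sums were mostly GATA3, at 15.2 CPM in JNKKO and 24.4 CPM in WT acini with dimerizer and TGF-β1. ESR1 and FOXA1 did not pass in that comparison, with 0.07 ± 0.36 (SE, adjusted p = 0.896) and 0.23 ± 0.25 (SE, adjusted p = 0.450). Of the 8 basal markers, 2 rose and 6 fell in JNKKO against WT acini with dimerizer and TGF-β1. Of all genes, 26.5% rose and 26.4% fell there, so the 2 rises were near the share of all genes. The 8 basal markers summed to 11401 to 11884 CPM in JNKKO and to 12940 to 14768 CPM in WT acini with dimerizer and TGF-β1. LAMB3, a laminin chain of the basement membrane, averaged 5389 CPM in JNKKO and 2748 CPM in WT acini there, a difference of 0.97 ± 0.10 (SE, adjusted p = 1.44e-06). The basal keratin KRT5 averaged 3249.6 CPM in JNKKO and 4845 CPM in WT acini, with -0.58 ± 0.07 (SE, adjusted p = 9.57e-06). The other keratins of the list were split there. KRT14 averaged 354 CPM in JNKKO and 147 CPM in WT acini, and KRT17 averaged 1244 CPM and 3969 CPM in the same order. The differences were -1.04 ± 0.07 (SE, adjusted p = 3.41e-11) for CDH1, the epithelial cadherin, and -0.80 ± 0.05 (SE, adjusted p = 4.74e-14) for TP63, a transcription factor of basal cells. In JNKKO control acini LAMB3 averaged 486 CPM and KRT5 8215 CPM. The part of these markers in the members' differences was not tested.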

How the data were processed

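The authors deposited, for each of the 18 libraries, RSEM expected counts and TPM, a per-length abundance, per gene; trimming with cutadapt, quantification with RSEM and the hg38 build come from the submitters' processing notes. Aligner and annotation are not given in the sources used. Expected counts can be fractional (a median of 9.35% of values per library was not whole) and were rounded. Because RSEM shares reads among similar sequences, paralogs and retrocopies can exchange counts. Per the labels' protocols, mRNA was enriched with oligo(dT) beads, rRNA was depleted and cDNA was made from random primers; strandedness is not stated, so reads of antisense partners cannot be told apart.

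Genes were matched to GENCODE 29 (42125 of 42141), and 127 altered names were restored. Counts were filtered with filterByExpr, scaled by TMM (factors 0.962 to 1.04) and fitted in edgeR 4.0.16 (R 4.3.3) with 1 mean per group over all 18 libraries. The robust quasi-likelihood F test was used, with Benjamini-Hochberg adjustment over all 16911 genes tested and a threshold of 0.05. Each SE was taken as the size of the log2 difference over the root of its F. Interactions are the JNKKO effect minus the WT effect. Comparisons of one genotype share groups, so they are not independent. CPM are TMM-scaled; the log2 differences of genes with few counts depend on the fit's prior count. No 2 libraries agreed within sampling noise (chi-square per gene 2.22 to 11.4 within groups). The fit was tested on simulated data, whose outcome is not given here. Alternatives were DESeq2 1.42.0 size factors and Wald test, no filter, mitochondrially encoded genes left out, only the groups compared, a replicate block, each library left out, and limma 3.58.1 with trend on log2(TPM + 1) and log2(TPM + 0.1). Median-scaled TPM was chosen as an alternative after seeing the data. Figures used matplotlib 3.10.9 on Python 3.11.15.

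The members, lists and tests were chosen with earlier results of these data known. Genes named by rule were the 4 largest rises and falls per comparison that passed and averaged 5 CPM in the higher group. A set of 16 members in each comparison and the largest rise and fall of each other list were also named by rule. Further members, and non-members in comparisons outside those rules, were chosen after their values were seen. So were the cell type markers described (CD68, CD14, DCN, PDGFRB, TEK, KDR, PECAM1, GATA3, ESR1, FOXA1, LAMB3, KRT5, KRT14, KRT17, CDH1 and TP63).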

Additional observations from a re-analysis of the deposited data

Results flagged for a closer look

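For 48 results the effect of a treatment differed between JNKKO and WT acini by a test of the difference itself, the interaction term of the edgeR fit (JNKKO effect minus WT effect, log2, adjusted p under 0.05 over all genes tested). Of all genes, 21.4% were above 0 and 21.2% below 0 by this test with dimerizer, and 14.1% and 18.8% with added TGF-β1. With dimerizer against control, the JNKKO effect exceeded the WT effect for ENO2 by 1.53, SLC2A3 by 1.24, NDRG1 by 1.18, EGLN3 by 1.13, HK2 by 1.05, ADM by 0.84 and CA12 by 0.81. The same held for PFKFB3 by 0.63, ALDOC by 0.58, PFKFB4 by 0.48, PFKP by 0.47, SLC16A3 by 0.44 and ENO1 by 0.40. Smaller excesses were those of BNIP3 (0.38), HK1 (0.37), ALDOA (0.35), PGK1 (0.24), PFKM (0.21) and PKM (0.18). It was below the WT effect for GAPDH (-0.41), EGLN1 (-0.28), PDK1 (-0.22) and LDHB (-0.21). Of 12 fits without 1 library, the call was lost in 10 for EGLN3, 9 for PFKFB4, 5 for SLC16A3, 3 for SLC2A3, 2 for PDK1 and 1 for ENO2.

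With TGF-β1 added to dimerizer, the JNKKO effect exceeded the WT effect for CA9 by 2.88, ENO2 by 1.85, SLC2A3 by 1.74 and VLDLR by 1.08. PDK1 followed with 0.82, DDIT4 with 0.76, BNIP3 with 0.71, SLC2A1 with 0.58, ALDOC with 0.56, PGK1 with 0.55, LDHA with 0.51, ANKRD37 with 0.51 and TPI1 with 0.50. GAPDH stood at 0.48, PGAM1 at 0.42, BNIP3L at 0.41, LDHB at 0.40, EGLN1 at 0.32 and HIF1A at 0.20. HIF1A lost its call when JNKKO dimerizer replicate 1 was left out (0.16), and ANKRD37 in 3 of 12 fits without 1 library. The JNKKO effect was below the WT effect for HK2 (-0.63), NDRG1 (-0.58), CA12 (-0.49), PFKP (-0.36), PFKM (-0.32) and ENO1 (-0.17). These 6 were near the 18.8% of all genes below 0. Among members that passed in both interactions, SLC2A3, ENO2, BNIP3, PGK1 and ALDOC were above 0 in both. HK2, NDRG1, CA12, PFKP, PFKM and ENO1 were above 0 with dimerizer and below 0 with TGF-β1, and GAPDH, LDHB, PDK1 and EGLN1 the other way round. Both interactions use the dimerizer libraries, with opposite sign.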

How the results depend on the processing

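The members that rose and fell were counted again under each alternative. On unscaled TPM (both pseudocounts, limma), the members that fell numbered 4 in JNKKO against WT acini with dimerizer and TGF-β1, 2 with dimerizer, 3 for JNKKO and 7 for WT dimerizer with TGF-β1 against control, 4 for added TGF-β1 in JNKKO acini, 3 for WT dimerizer against control and 7 for the interaction with dimerizer, where 12 rose at a pseudocount of 0.1. TPM shares are not TMM-scaled, and on them the median of all genes moved by up to 0.23 (log2); median-scaled TPM left it near 0. In JNKKO against WT acini with dimerizer and TGF-β1, 1 member fell on median-scaled TPM and with only the groups compared, and 1 to 2 fell without 1 library. That comparison gave 32 rises and 2 falls when the library with the contradicting tag (WT, dimerizer with TGF-β1, replicate 3) was left out.

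Directions reversed on unscaled TPM, with the pseudocounts of 1 and 0.1, for GAPDH (0.051 and 0.051) and DDIT4 (0.10 and 0.10) with TGF-β1 added in JNKKO acini, and for PGK1 (0.10 and 0.10) and HIF1A (0.055 and 0.056) in WT acini. In dimerizer with TGF-β1 against control they reversed for LDHB (0.14 and 0.14) and PDK1 (0.14 and 0.16) in JNKKO acini and for PGK1 (0.26 and 0.26) and LDHB (0.0023 and 0.0023) in WT acini. LDHB in JNKKO against WT acini with dimerizer reversed too (-0.021 and -0.021). PDK1 in the interaction with dimerizer was 0.15 on median-scaled TPM. The cause was not tested.

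As shares of CPM, which are not per length, the values in JNKKO and WT acini with dimerizer and TGF-β1 were 17.3% and 20.3% for HK2, 32.4% and 33.3% for PFKFB4, 1.47% and 1.05% for ALDOC, 2.51% and 0.132% for ENO2, 71.8% and 65.9% for LDHA and 38.6% and 10.8% for EGLN3, and SLC2A3 took 10.2% in JNKKO acini.

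The replicate numbers share only a number: same-numbered libraries did not deviate together (r from -0.0585 to 0.0529). With the replicate block the counts in JNKKO against WT acini were 32 rises and 2 falls with TGF-β1, 31 and 0 with dimerizer, and 20 and 5 in control. Of 212 named results, 208 kept direction and side of the threshold with the block and 208 with DESeq2's Wald test, 204 on median-scaled TPM and 175 on unscaled TPM. Of 1512 such values without 1 library, 1447 did and 0 reversed. Adding pseudogene counts could not be run because no pseudogene named after a member was among the genes analysed. Few counts limit CA9, VLDLR, SLC2A3 and ENO2 in WT acini.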
